A study of Mus musculus with 10 samples.

Results

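The genes described here are the nuclear genes of oxidative phosphorylation, the subunits of respiratory complexes I to IV, cytochrome c and the ATP synthase (complex V) that are encoded outside mitochondrial DNA, measured by bulk RNA-seq in Treg cells with or without a system that degrades Foxp3 protein. They were chosen by gene name alone: rows named Nduf followed by a, b, c, s or v and a number, Uqcr, Cox4 to Cox8, Atp5, Sdha to Sdhd, Cyc1 or Cycs, leaving out names marked -ps, the pseudogene rows. The rule found 87 of the 55809 gene rows: 37 of complex I, 4 of complex II, 9 of complex III with Cyc1 among them, Cycs, 19 of complex IV and 17 of complex V. Of the 87, 81 had a mean count of at least 10 and were tested, and the 6 that were not are all isoforms of complex IV subunits. The names place Ndufa4 in complex I, although its product is now counted with complex IV, and place Cox7a2l, whose product links respiratory complexes into supercomplexes, in complex IV.

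The cells were Treg cells, labelled as such, from the spleen and lymph nodes of mice. In both groups the endogenous Foxp3 allele encoded a fusion of Foxp3 with AID, a degron that responds to auxin analogs, together with ZsGreen as reporter and Cre recombinase. The auxin analog 5-ph-IAA was given over 14 days to the mice of either genotype. The 4 R26-WT mice had no TIR1. The 6 R26-TIR1(F74G) mice carried at the ROSA26 locus, behind a loxP-flanked stop that the Cre removes, a CAG promoter driving TIR1(F74G), a mutated plant E3 ligase subunit that with 5-ph-IAA marks the AID-Foxp3 protein for degradation, and mCherry. Each library is numbered as its own replicate and was taken to be from its own mouse, and the labels give no age. The study's general sorting scheme took ZsGreen+ cells from R26-WT mice but cells positive for both ZsGreen and mCherry from R26-TIR1(F74G) mice. This part of the sort and the genotype therefore cannot be told apart. The comparison asks whether transcripts of the respiratory chain differed in Treg cells whose Foxp3 protein was targeted for degradation over this time.

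In the inner mitochondrial membrane, complex I takes electrons from NADH and complex II takes them from succinate, ubiquinone carries them to complex III, cytochrome c carries them to complex IV, and complex IV passes them to oxygen. Complexes I, III and IV pump protons as the electrons pass, and complex V uses the returning protons to make ATP. Most subunits are nuclear genes, and Treg cells are known for relying on oxidative metabolism more than activated conventional T cells do. The transcription factors NRF1, GABP (an ETS family member) and YY1 are known to bind promoters of many of these genes.

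Promoter sequence was given for 70 of the 87 genes, in 75 promoters, from RefSeq on build GRCm38.p6. Each covered 250 bases before the annotated start and 50 bases after it. They were searched on both strands for the letters GCATGCGC (the core of the NRF1 motif), CCGGAAG (an ETS motif) and AAGATGGC (a YY1 motif). The NRF1 letters were in 14.7% of the 75 promoters and in 2.71% of all 32851 promoters, the ETS letters in 22.7% and 8.86%, and the YY1 letters in 13.3% and 2.75%. By gene, 11 held the NRF1 letters, 17 the ETS letters, 10 the YY1 letters and 38 none of them. Of the 10 YY1 matches, 9 read on the gene's own strand and 8 began between 23 and 39 bases after the start. In complex I, 7 of 35 promoters held the YY1 letters and 3 the NRF1 letters. Stretches from 100 bases before to 30 bases after the start are shown for 6 genes, one or 2 for each of complexes I, II, III, V and cytochrome c, because they hold these letters close to the start. NRF1, ETS and YY1 letters are in capitals, each line reads 5′ to 3′ on the gene's strand, and a match is a description of letters, not a shown binding site.
Ndufa3 (complex I, chr7:3617273-3617402, plus strand): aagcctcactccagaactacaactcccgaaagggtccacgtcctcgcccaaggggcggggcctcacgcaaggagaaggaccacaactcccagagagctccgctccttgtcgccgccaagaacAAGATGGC
Ndufa8 (complex I, chr2:36049309-36049438, minus strand): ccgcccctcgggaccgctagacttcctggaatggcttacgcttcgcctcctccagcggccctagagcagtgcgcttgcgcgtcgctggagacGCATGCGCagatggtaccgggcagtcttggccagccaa
Sdhb (complex II, chr4:140961171-140961300, plus strand): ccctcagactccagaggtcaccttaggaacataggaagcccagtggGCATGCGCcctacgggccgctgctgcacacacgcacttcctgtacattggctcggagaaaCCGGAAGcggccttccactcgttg
Uqcr11 (complex III, chr10:80406792-80406921, minus strand): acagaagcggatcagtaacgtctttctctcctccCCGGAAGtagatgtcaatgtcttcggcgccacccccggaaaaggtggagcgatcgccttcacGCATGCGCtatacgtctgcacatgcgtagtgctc
Atp5k (complex V, chr5:108434370-108434499, minus strand): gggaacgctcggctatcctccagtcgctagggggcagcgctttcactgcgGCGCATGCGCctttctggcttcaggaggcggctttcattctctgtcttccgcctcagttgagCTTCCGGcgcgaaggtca
Cycs (cytochrome c, chr6:50566540-50566669, minus strand): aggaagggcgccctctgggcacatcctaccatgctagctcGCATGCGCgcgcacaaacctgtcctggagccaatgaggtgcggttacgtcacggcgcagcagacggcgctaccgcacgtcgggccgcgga

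The 10 libraries held 24158699 to 54795718 counted read pairs. Foxp3 RNA, which the degron does not target, had a log2 fold change of 0.07 (95% interval -0.42 to 0.57). All 7 genes of the Treg marker list were present, with a summed level of 2269 to 2788 TPM (counts per kilobase of exon, scaled to the same total in every library). Cd3e (mean 777 TPM) and Cd4 (453 TPM), which other CD4 T cells also express, were part of this sum. The 7 had a median log2 fold change of -0.16 and 0 were called. It was -0.42 for Tnfrsf18, -0.31 for Ctla4, -0.29 for Il2ra, -0.16 for Ikzf2 and -0.05 for Cd3e, but 0.26 for Cd4. Tnfrsf18 and Ctla4 had unadjusted p of 0.027 and 0.020 in DESeq2's Wald test (adjusted p = 0.541 and 0.448). The 5 B cell markers summed to 37.7 to 58.5 TPM, the 5 CD8 T and NK cell markers to 56.5 to 76.7, the 5 myeloid markers to 3.15 to 7.98, the 6 erythroid markers to at most 0.993 and the 5 muscle and brown fat markers to at most 0.489. Over all genes, 284 of 16363 tested genes differed between genotypes at an adjusted p under 0.05 in DESeq2's Wald test, and 14 of 18 proliferation genes were among them, all higher in R26-TIR1(F74G). Levels are per RNA: fewer cells of one type and less RNA per cell cannot be told apart in bulk samples.

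No nuclear oxidative phosphorylation gene passed the test between the genotypes. Of the 81 tested genes 0 passed an adjusted p of 0.05 in DESeq2, against 1.74% of all tested genes (1.4% called higher and 0.336% called lower in R26-TIR1(F74G)), and 0 passed in edgeR's quasi-likelihood test, against 0.373%. With so few calls over all genes, an absence of calls among 81 is near the background and is not by itself a result about them. None of the 81 had an unadjusted p under 0.05 (6.86% of all tested genes did), and in none did the normalized counts of the groups fail to overlap (2.37% of all). The smallest unadjusted p was 0.228, for Atp5g2, and its DESeq2 adjusted p was 1.00, as for each of the 81.

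The log2 fold changes, R26-TIR1(F74G) over R26-WT, ran from -0.28 for Atp5g2 to 0.19 for Atp5md, with a median of -0.04 beside 0.0006 for all tested genes; 27 were above 0 and 54 below. The side of 0 rested on single libraries, since the median was 0.056 without R26-WT replicate 3 and -0.13 without R26-WT replicate 2. Standard errors ran from 0.08 to 0.27 with a median of 0.17. For 79 of the 81 genes the 95% interval lay within a 1.5-fold change in either direction, as it did for 54.1% of all tested genes, and for all 81 it lay within 2-fold. The exceptions to the narrower bound were Atp5g2 and Cox6b2, with at most 126 and 95 counts in a library. The interval of each gene therefore gives the size of difference these 10 libraries leave possible, which the p-value alone does not.

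**Figure D1:**
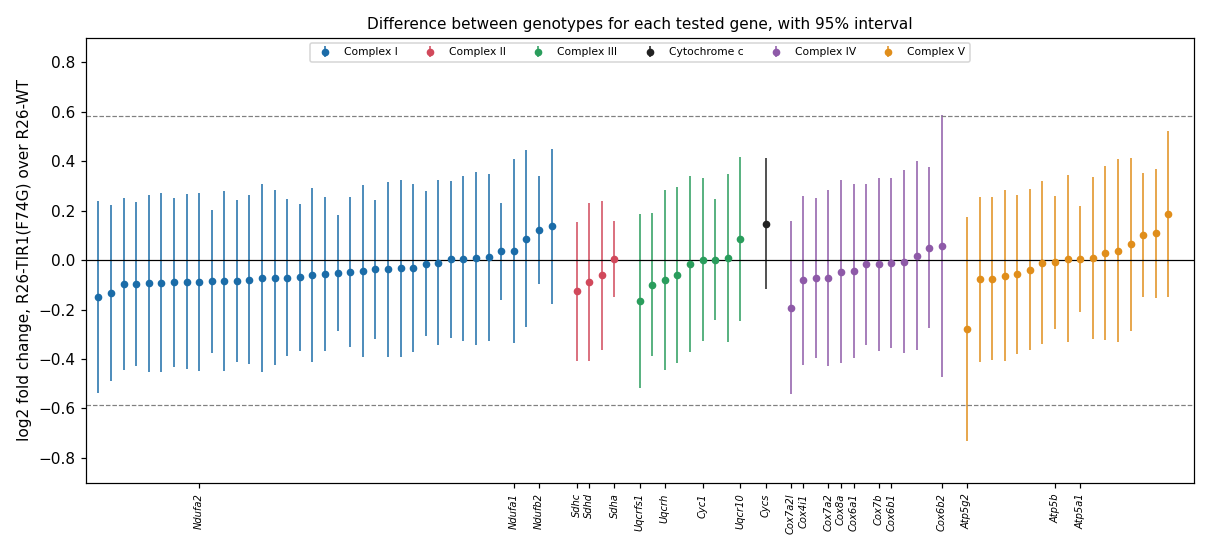
Log2 fold change of each of the 81 tested genes, R26-TIR1(F74G) over R26-WT, with its 95% interval, sorted within each complex, with names under the genes whose values are given in full; dashed lines mark a 1.5-fold change. Every interval crosses 0, and only those of Atp5g2 and Cox6b2 reach a dashed line.

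As a group the genes took 0.854% to 1.29% of a library's counts. The share was 1.09% ± 0.19 (SD, n = 4) in R26-WT and 1.08% ± 0.14 (SD, n = 6) in R26-TIR1(F74G). Summed over the 87 genes the level was 17713 ± 1942 TPM (SD, n = 4) in R26-WT and 17952 ± 1570 TPM (SD, n = 6) in R26-TIR1(F74G), and the ranges of the groups overlapped. Complex I summed to 6184 ± 786 against 6208 ± 600 TPM, complex II to 1075 ± 41.7 against 1079 ± 30.025, complex III to 2226 ± 257 against 2275 ± 207, complex IV to 3855 ± 502 against 3885 ± 430, and complex V to 4369 ± 368 against 4499 ± 324 (R26-WT first, SD, n = 4 and 6). The ratio of the means lay between 1.00 and 1.03 for complexes I to V. Cytochrome c, a single gene at a low measured level, stood at 5.00 ± 0.489 against 5.74 ± 0.630 TPM.

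**Figure D2:**
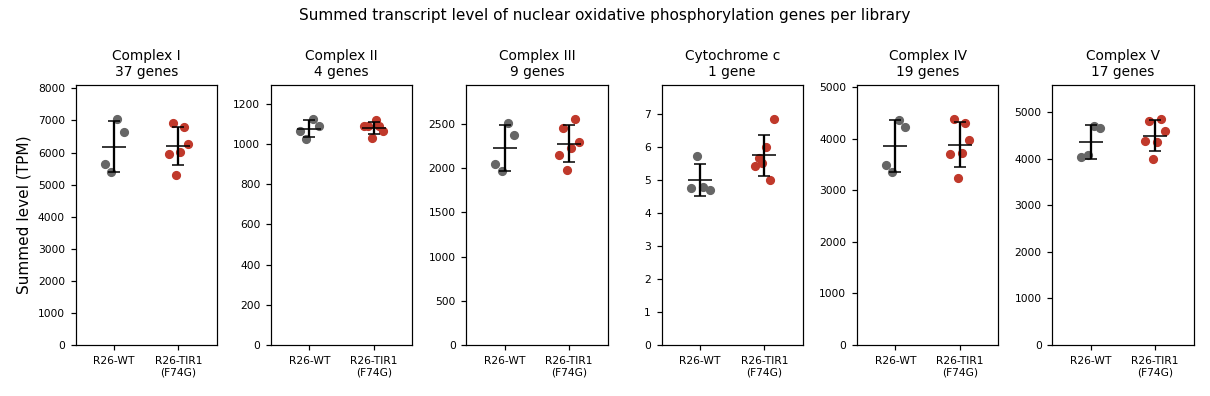
Summed level of each complex in every library (TPM, axes from 0), with the mean and SD of each genotype in black. The genotypes overlap in every panel, and complex II has the narrowest range for its level, from 1024 to 1123 TPM.

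Complex I, the NADH dehydrogenase, had 37 tested genes with log2 fold changes of -0.15 (Ndufc2) to 0.14 (Ndufb4) and a median of -0.06; 9 were above 0 and 28 below. The 29 accessory subunits among them, with Ndufa4 left out, ran from -0.15 to 0.14, 8 above 0 and 21 below. Ndufa1 and Ndufa2 had the highest levels of the complex, 409 and 401 TPM. Ndufa1, a membrane subunit needed for assembly, had normalized counts of 2107, 1982, 3133 and 2692 in R26-WT replicates 1 to 4, and from 1852 to 3284 with a median of 2418 in the 6 R26-TIR1(F74G) libraries. Each group of Ndufa1 values thus held both low and high libraries, and the log2 fold change was 0.04 ± 0.19 (SE). Ndufa2, an accessory subunit of the matrix arm, had 3066, 2594, 4217 and 4103 in R26-WT and 2456 to 3996, median 3186, in R26-TIR1(F74G), a log2 fold change of -0.09 ± 0.18. Ndufb2, an accessory subunit of the membrane arm, had the smallest unadjusted p of the complex, 0.272 (DESeq2 adjusted p = 1.00). Its normalized counts were 581, 587, 667 and 683 in R26-WT and 614 to 769, median 683, in R26-TIR1(F74G), so that both groups covered the range from 614 to 683, and the log2 fold change was 0.12 ± 0.11.

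Complex II, succinate dehydrogenase, is the one complex with no subunit in mitochondrial DNA, and it also belongs to the tricarboxylic acid cycle. Its 4 genes had log2 fold changes of -0.13 to 0.005. Sdha, the flavoprotein that oxidizes succinate, was the most precisely measured of the 81 genes. Its normalized counts were 23248, 21998, 20662 and 20818 in R26-WT and 20310 to 23013, median 21948, in R26-TIR1(F74G). The log2 fold change of Sdha was 0.005 ± 0.08, with a 95% interval of -0.15 to 0.16, a change of less than 1.5-fold either way. Sdhd, one of the membrane anchors, had 5364, 4897, 7834 and 7003 in R26-WT against 4791 to 6734, median 5869 (log2 fold change -0.09 ± 0.16). Sdhc, the other anchor, had 4058, 3831, 5733 and 5304 against 3758 to 4810, median 4294, a log2 fold change of -0.13 ± 0.14 with an unadjusted p of 0.382 (DESeq2 adjusted p = 1.00). In both anchors R26-WT replicates 3 and 4 were above every R26-TIR1(F74G) library and replicates 1 and 2 near the bottom of their range.

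Complex III passes electrons from ubiquinol to cytochrome c. Its 9 genes had a median log2 fold change of -0.02. Cyc1, the cytochrome c1 subunit that hands electrons to cytochrome c, had normalized counts of 7893, 7543, 11894 and 10378 in R26-WT and 7329 to 11212, median 9675, in R26-TIR1(F74G), a log2 fold change of 0.002 ± 0.17. Uqcrfs1, the Rieske iron-sulfur protein, was lowest in fold change at -0.17 ± 0.18. Its counts were 5390, 4935, 7649 and 7171 against 4344 to 7001, median 5243, with an unadjusted p of 0.355 (DESeq2 adjusted p = 1.00). Uqcr10 and Uqcrh, small subunits with the highest levels of the complex (451 and 308 TPM), had fold changes of opposite sign, 0.09 ± 0.17 and -0.08 ± 0.19. Uqcr10 had 3270, 2987, 4580 and 4040 in R26-WT against 3106 to 4735, median 3752. Uqcrh had 4880, 4514, 6979 and 6763 against 4033 to 6702, median 5245.

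Complex IV, cytochrome c oxidase, transfers electrons to oxygen through subunits encoded in mitochondrial DNA, and the nuclear subunits surround them. The 37 rows of the mitochondrial genome held 0 counts in all libraries, so those subunits were not analysed here. The 10 widely used subunits (Cox4i1, Cox5a, Cox5b, Cox6a1, Cox6b1, Cox6c, Cox7a2, Cox7b, Cox7c and Cox8a) had log2 fold changes of -0.08 to 0.05. Cox6a1 was highest, at 866 TPM, followed by Cox8a and Cox6b1 at 605 TPM and Cox4i1 at 596. Cox6a1 had normalized counts of 7607, 7146, 10881 and 10726 in R26-WT and 6484 to 10618, median 8757, in R26-TIR1(F74G), with a log2 fold change of -0.05 ± 0.18. Cox8a had 4757, 4444, 6715 and 6530 against 3928 to 6841, median 5190 (-0.05 ± 0.19). Cox7a2l, the supercomplex factor, had the smallest unadjusted p, 0.280 (DESeq2 adjusted p = 1.00), with 4329, 4030, 6224 and 6067 against 3349 to 5526, median 4393, and a log2 fold change of -0.19 ± 0.18. Cox6c2 (log2 fold change -0.006) shares its name with Cox6c, and how reads divided between these rows was not tested.

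Several complex IV subunits have a form made mainly in muscle, heart, lung or testis, and all of these except Cox6b2 had at most 13 counts in any Treg library of either genotype. Cox6a2, Cox7b2 and Cox8c held 0 counts in all 10 libraries, Cox8b at most 3, Cox4i2 at most 9 and Cox7a1 2 to 13. Cox4i2, the form of lung and of low oxygen, had 1, 1, 9 and 1 counts in R26-WT and 0 to 4 in R26-TIR1(F74G), while Cox4i1 had normalized counts of 11700, 11059, 17402 and 15966 against 10253 to 16161, median 12809 (log2 fold change -0.08 ± 0.17). Per length, Cox4i2 stood at 0.18 TPM beside 596 for Cox4i1. Cox7a2 had 3284, 2994, 4784 and 4374 against 2761 to 4447, median 3622 (-0.07 ± 0.18). Cox7b had 3490, 3358, 5124 and 4816 against 3161 to 5059, median 4120 (-0.02 ± 0.18). Cox6b2, the testis form, was the only restricted isoform with enough counts to test. It had 64.5, 60.0, 65.1 and 64.3 normalized counts in R26-WT and 41.7 to 97.6, median 62.6, in R26-TIR1(F74G), a log2 fold change of 0.06 ± 0.27, at a level 150-fold under that of Cox6b1. Cox6b1 itself had 5468, 5064, 7644 and 7082 against 4648 to 7539, median 6225 (-0.01 ± 0.18). The R26-TIR1(F74G) libraries were more spread than the R26-WT libraries for Cox6b2, and in both groups the counts were few.

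Complex V, the ATP synthase, had the highest levels of all 87 genes. Atp5b and Atp5a1, the catalytic and the non-catalytic subunit that alternate in the F1 head, stood at 1081 and 868 TPM. Atp5b had normalized counts of 60043, 58307, 75855 and 74666 in R26-WT and 53767 to 76103, median 66880, in R26-TIR1(F74G), a log2 fold change of -0.009 ± 0.14. Atp5a1 had 35483, 36500, 43445 and 43021 against 35204 to 44177, median 39617, a log2 fold change of 0.005 ± 0.11. The 5 genes of F1 (Atp5a1, Atp5b, Atp5c1, Atp5d and Atp5e) ran from -0.08 to 0.04, and the 4 of the peripheral stalk (Atp5o, Atp5pb, Atp5h and Atp5j) from -0.08 to 0.10. The 5 small membrane subunits (Atp5k, Atp5j2, Atp5l, Atp5md and Atp5mpl) lay between 0.005 and 0.19, none past the test. The c ring is encoded by Atp5g1, Atp5g2 and Atp5g3, whose mature proteins are the same, and Atp5g3 held nearly all of its measured level, 388 TPM beside 16.2 for Atp5g1 and 3.12 for Atp5g2. TPM divides by all annotated exons, 4912 bases in Atp5g1 and 2181 in Atp5g3, and the mean raw counts were 1205 and 12830. Nearly all coding sequence of Atp5g1 and Atp5g2, but none of Atp5g3, is repeated elsewhere in the genome, as described below. The true shares of the c ring genes were therefore not measured. Atp5g2 had only 89.2, 62.0, 102.6 and 87.1 normalized counts in R26-WT and 48.1 to 86.7, median 76.3, in R26-TIR1(F74G). Its log2 fold change of -0.28 ± 0.23 was the lowest of the 81 genes, with a 95% interval of -0.73 to 0.17.

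Cycs, the gene of cytochrome c itself, had 229, 267, 264 and 252 normalized counts in R26-WT and 244 to 332, median 273, in R26-TIR1(F74G). The highest and the lowest library were of different genotypes, the groups overlapped from 244 to 267, and the log2 fold change was 0.15 ± 0.13, with an unadjusted p of 0.270 (DESeq2 adjusted p = 1.00). At 5.44 TPM its measured level was far under the 299 TPM of Cyc1.

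The low level of Cycs and of some other genes goes with sequence found more than once in the genome. Each transcript was cut into windows of 50 bases and searched in GRCm39. Windows of the coding sequence were found at another place for 100% of the windows in Cycs, Atp5g2, Ndufb4, Atp5md and Cox7c, and for 99.7% in Atp5g1. Read pairs with a mapping quality under 30 were not counted, and those that fit several places equally well are among them. A window of Cycs with 7 other exact copies, the most for any of its windows within an exon, is shown beside a window from the middle of Atp5b, which had none.
Cycs (chr6:50542292-50542341, GRCm39, minus strand): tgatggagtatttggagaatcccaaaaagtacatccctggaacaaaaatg
Atp5b (chr10:127921905-127921954, GRCm39, plus strand): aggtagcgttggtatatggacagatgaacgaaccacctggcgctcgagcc

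The 13 tested genes with at least 50% of coding windows found elsewhere had mean levels of 3.12 to 143 TPM, with a median of 35.6. The 42 tested genes with no such window had 4.03 to 868 TPM, with a median of 226. Of the 8 tested genes under 20 TPM, 6 were among those 13 (Atp5g1, Atp5md, Ndufb4, Cycs, Atp5l and Atp5g2). The others were Cox6b2, the testis isoform, with 0% of coding windows elsewhere, and Ndufb2 with 1.12%. TPM also divides by the length of all annotated exons, with a median of 1675 bases in the 81 tested genes. That length was 6443 bases in Atp5l, 5628 in Ndufb2 and 4912 in Atp5g1, but 1675 in Atp5g2 and 1108 in Cox6b2. Ndufb2 had a mean count of 681, above the 496 of Ndufs5, which stood at 38.1 TPM. The parts of repeated sequence and of exon length in the low levels were not tested. Of the left-out pseudogene rows, Ndufa12-ps held 488 to 1536 counts per library, Atp5pb-ps 338 to 1020, Ndufs5-ps 279 to 818 and Cox5b-ps 258 to 710. These are rows of near copies, and whether their reads came from the copies or from the parent genes was not tested. Overlap with other genes also affected some rows: 43.8% of the exon bases of Atp5o, 38.9985% of Ndufb6 and 29.98% of Ndufa13 lie within exons of other genes, and read pairs there are not assigned.

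**Figure D3:**
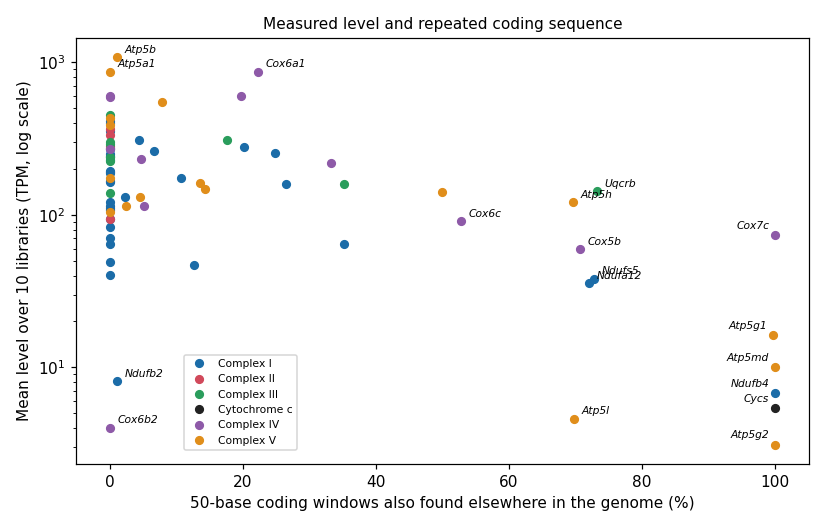
Mean level of each tested gene over the 10 libraries (TPM, log scale) against the percent of its 50-base coding windows that are also found elsewhere in the genome. Genes at 100% lie between 3.12 and 73.6 TPM, and Ndufb2 and Cox6b2 are the low genes with few or no such windows.

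The nuclear oxidative phosphorylation genes varied together from library to library in both genotypes. Taking each gene's deviation from its own mean on the log2 scale, the median over the 81 genes was 0.32 in R26-WT replicate 3 and 0.20 in replicate 4, but -0.17 in replicate 1 and -0.27 in replicate 2. In R26-TIR1(F74G) it was 0.25 in replicate 6, 0.22 in replicate 9, -0.002 in replicate 10, -0.08 in replicate 8, -0.09 in replicate 5 and -0.37 in replicate 7. Each genotype therefore held libraries with high and with low values of nearly all of these genes. R26-WT replicate 3 had the highest value in 59 of the 81 genes (20.2% of all tested genes), and R26-TIR1(F74G) replicate 7 the lowest in 63 (23.4% of all). Replicates 3 and 7 were also highest and lowest by the median of complexes I, II, III, IV and V, each taken alone. Cycs was an exception, at -0.02 in R26-WT replicate 3 and highest in R26-TIR1(F74G) replicate 10 (0.31).

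These deviations moved with the slope of each library's log2 values on exon length over all tested genes. The slope per log2 unit of length was -0.10 in R26-WT replicate 3 and 0.12 in R26-TIR1(F74G) replicate 7, and the 10 libraries had the same order by slope and by median deviation, reversed, except that R26-WT replicate 4 and R26-TIR1(F74G) replicate 6 changed places. The oxidative phosphorylation genes are short, with a median exon length of 1675 bases in the 81 tested beside 3419 in all tested genes. Over the 10 libraries, 3 of the 81 genes (Ndufs1, Sdha and Atp5l) had r below 0 against the median of the other genes (-0.81, -0.42 and -0.18), and with a trend on length taken out their r was 0.75, 0.42 and 0.60. Elsewhere r fell, as from 0.42 to -0.13 in Ndufb4 and from 0.90 to 0.28 in Atp5h. In Ndufb2 (5628 bases of exon) r rose from 0.67 to 0.92. Some other genes with many exon bases had r near that of the rest in either case, as Atp5b (4237) with 0.98 and 0.98 and Ndufb5 (4995) with 0.99 and 0.96. These lengths join all annotated exons, while the canonical transcripts of Atp5b and Ndufb5 have 1926 and 1079 bases. With the trend taken out, the SD over the libraries rose from 0.18 to 0.24 in Atp5b and from 0.22 to 0.33 in Ndufb5. Ndufs1 (8086 bases of exon), the largest core subunit of complex I, had normalized counts of 6444, 5763, 5110 and 5411 in R26-WT, highest in replicate 1 and lowest in replicate 3, and 5336 to 6169 in R26-TIR1(F74G). Sdha, with 4126 bases, was likewise highest in R26-WT replicate 1. With a smooth trend on length taken out of each library, the median SD of the 81 genes over the libraries was 0.13 in place of 0.25, while that of all tested genes was 0.27 in place of 0.30. The shared pattern was smaller but remained: the median deviation was then 0.15 in R26-WT replicate 3, 0.17 in R26-TIR1(F74G) replicate 6 and -0.20 in R26-TIR1(F74G) replicate 7, and the median r of a gene with the median of the others was 0.92 in place of 0.98. The fold changes between genotypes then ran from -0.23 to 0.20 with a median of -0.009, and 0 of the 81 were called. The smallest adjusted p of DESeq2 was then that of Atp5h, the stalk subunit d, at 0.267 with a log2 fold change of 0.15. Atp5h, Ndufs1, Ndufb4, Ndufb5 and Atp5l were picked for naming after their values were seen. RNA integrity varied among these libraries per the labels, which give no value for each, and its part in the deviations was not tested.

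**Figure D4:**
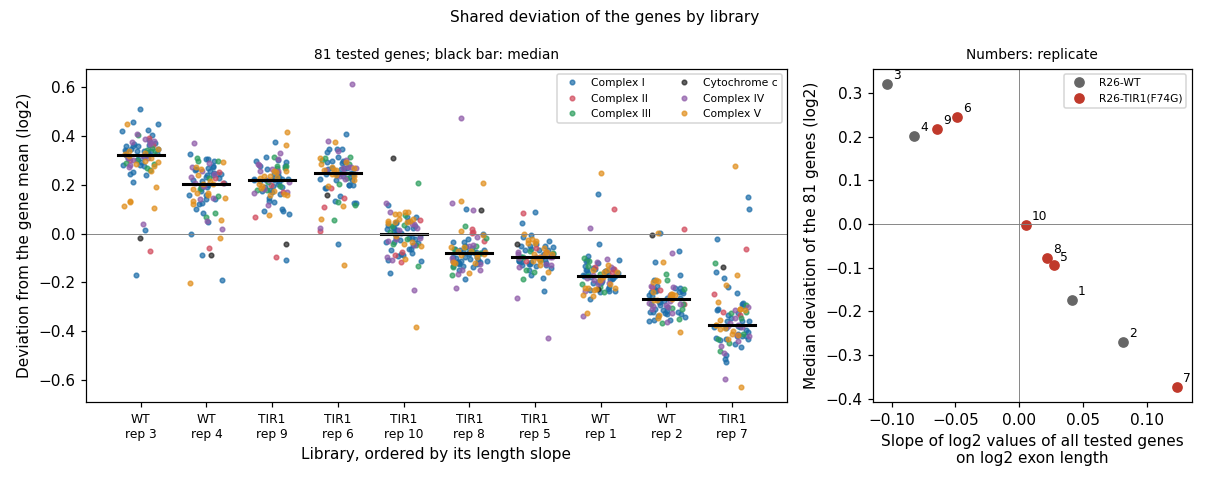
Left, deviation of each of the 81 genes from its mean over the libraries (log2), by library in order of the length slope, with the median as a black bar. Right, the median deviation against the slope of each library, with R26-WT in grey, R26-TIR1(F74G) in red and the replicate number beside each point; both genotypes span the trend.

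No gene in the lists of genes that build or serve the respiratory chain was called. Of 87 genes in 8 lists 83 were tested and 0 passed, with 1 at an unadjusted p under 0.05, beside 1.74% called and 6.86% at that unadjusted p over all tested genes. With so low a share over all genes, the absence of calls is near the background and is not a result about these lists. That gene was Sdhaf1, which helps insert the iron-sulfur clusters of complex II. Its normalized counts were 1145, 950, 1707 and 1443 in R26-WT and 857 to 1149, median 1049, in R26-TIR1(F74G), where R26-WT replicates 3 and 4 again stood above the rest, and its log2 fold change was -0.35 ± 0.17 (DESeq2 adjusted p = 0.648). The 49 tested assembly factors had medians of -0.05 for complex I, -0.18 for complex II, -0.04 for complex III, -0.05 for complex IV and -0.07 for complex V.

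The gene with the smallest unadjusted p in the complex III list was Lyrm7, a chaperone of the Rieske protein, at 0.31 ± 0.16 (DESeq2 adjusted p = 0.738), with 299, 248, 376 and 320 normalized counts in R26-WT and 324 to 444, median 384, in R26-TIR1(F74G). In the complex I list it was Tmem186 at 0.13 ± 0.08, in the complex IV list Coa4 at -0.23 ± 0.18, and in the ATP synthase list Tmem70 at -0.10 ± 0.14, each with a DESeq2 adjusted p of 1.00. The groups overlapped in each of these genes. The 13 genes of the tricarboxylic acid cycle ran from -0.11 to 0.09, with Suclg2, a subunit of succinyl-CoA ligase, at -0.10 ± 0.08. The 7 carriers of nucleotides, phosphate and protons ran from -0.10 to 0.13, with Slc25a4, an ADP/ATP carrier, at 0.13 ± 0.15.

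Among regulators of mitochondrial biogenesis and of mitochondrial DNA expression, 14 of 15 were tested. Ppargc1a, a coactivator known from muscle and brown fat, had a mean level of 0.0879 TPM and was not tested. Tfb1m, a methyltransferase of mitochondrial ribosomal RNA, had the smallest unadjusted p of this list (log2 fold change -0.40 ± 0.22, DESeq2 adjusted p = 0.893), with 362, 299, 622 and 437 normalized counts in R26-WT against 231 to 384, median 349. Nrf1 RNA, which encodes the factor whose motif was searched above, had a log2 fold change of -0.06 ± 0.10, Gabpa -0.02 ± 0.24 and Yy1 -0.12 ± 0.14, named for that reason and not by their values. By contrast the 14 called proliferation genes were part of a list with a median log2 fold change of 1.24, for example Rrm2, a subunit of ribonucleotide reductase, at 1.43 ± 0.21. The part of proliferation in the levels of the oxidative phosphorylation genes was not tested.

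**Figure D5:**
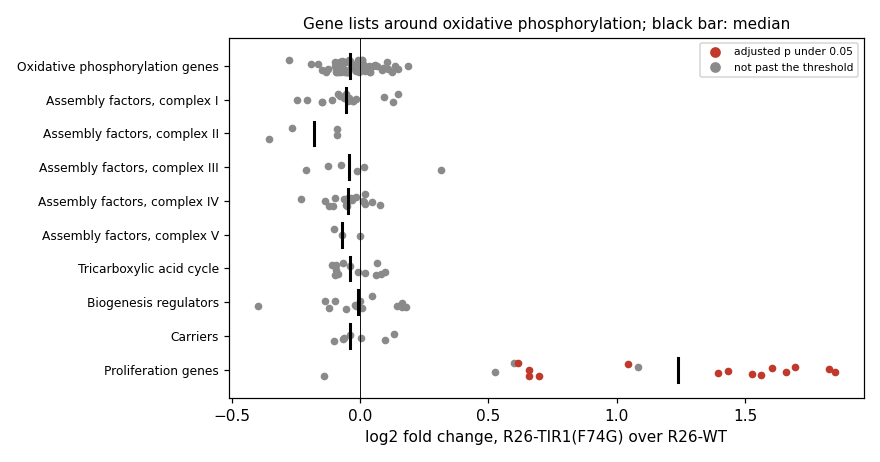
Log2 fold change, R26-TIR1(F74G) over R26-WT, of each tested gene in the oxidative phosphorylation set, in 8 lists of related genes and in a list of proliferation genes, with the median as a black bar and genes past an adjusted p of 0.05 in red. The respiratory lists center between -0.18 and -0.01 with no gene in red, while 14 of 18 proliferation genes are red and above 0.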

How the data were processed

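The deposited values were raw counts of read pairs per gene, 1 library a file and not normalized. According to its header line, each file came from the authors' run of featureCounts 2.1.1 with the GENCODE M30 annotation of GRCm39. Primary pairs with a mapping quality of at least 30 were kept and no strand option was named, so antisense overlaps cannot be told apart. STAR is the aligner in the study's methods, Bowtie2 in the submitters' processing notes. The libraries were amplified from little RNA without molecular identifiers named.

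Tests covered the 16363 genes whose mean count reached 10 and used DESeq2 1.42.0 (R 4.3.3), the tool of the study's methods, as a two-sided Wald test with genotype as the only term and Benjamini-Hochberg adjustment over all tested genes at 0.05. Normalized counts are counts over DESeq2 size factors. Intervals are the fold change ± 1.96 SE. edgeR 4.0.16 (quasi-likelihood) and limma 3.58.1 (voom with quality weights) were alternatives. The fits were tested on simulated data. Each library was counted as a replicate because the titles number a replicate for each, which was taken to be its own mouse. No pair within a group agreed within counting noise (chi-square of 9.84 to 242 per degree of freedom), which amplification alone can also give. For uniqueness, the canonical GENCODE M39 transcript of 86 of the 87 genes was used.

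The genes, lists and tests were chosen with earlier results of these data known. Named in full were, in each complex, the 2 tested genes with the highest counts per kilobase and the one with the smallest unadjusted p, Cycs, Cyc1, the isoform pairs of complex IV, and in each list the gene with the smallest unadjusted p. Other names are marked as chosen after their values were seen, or serve as examples of a range. Counts cover the whole set, but not every gene is reported here by name.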

Additional observations from a re-analysis of the deposited data

Results flagged for a closer look

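Dixon's test for 1 distant value was applied to 78 groups of values (named genes, summed levels of each complex, shares and totals, in 4 or 6 libraries each), of which chance flags about 1 in 20. It marked 2. In R26-WT replicate 2 the level of cytochrome c was 5.73 TPM, while the other 3 R26-WT libraries had 4.70 to 4.79. In the same library Cox6b2 had a normalized count of 60.0, while the others had 64.3 to 65.1, a gap of few counts in a gene with few counts.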

How the results depend on the processing

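No paired analysis was possible because replicates are numbered 1 to 4 in R26-WT and 5 to 10 in R26-TIR1(F74G). Under all 16 alternatives 0 of the 81 genes and 0 genes of the 8 lists were called, and the smallest adjusted p of any of the 81 genes was 0.194 (Atp5h, DESeq2 with length and GC trends removed, an alternative chosen after seeing the data). The count over all genes was 284, but 61 in edgeR, 80 in limma voom and 187 (without R26-WT replicate 4) to 346 (without R26-WT replicate 2) with 1 library left out. The fold changes near 0 have no stable sign. Leaving out 1 library moved the median of the 81 genes over -0.13 to 0.056, that of complex I over -0.14 to 0.052, complex II over -0.17 to 0.0083, complex III over -0.13 to 0.079 and complex IV over -0.11 to 0.072, the lowest without R26-WT replicate 2 and the highest without R26-WT replicate 3. Of 30 named genes 14 kept their sign under every alternative. With 1 library left out the others ranged on the log2 scale over -0.055 to 0.17 (Ndufa1), -0.21 to 0.017 (Ndufa2), -0.016 to 0.0401 (Sdha), -0.19 to 0.037 (Sdhd), -0.0047 to 0.20 (Uqcr10), -0.18 to 0.025 (Uqcrh), -0.091 to 0.13 (Cyc1), -0.14 to 0.054 (Cox6a1), -0.14 to 0.053 (Cox8a), -0.18 to 0.039 (Cox4i1), -0.10 to 0.094 (Cox6b1), -0.094 to 0.16 (Cox6b2), -0.17 to 0.0499 (Cox7a2), -0.11 to 0.094 (Cox7b), -0.0703 to 0.056 (Atp5b), -0.044 to 0.054 (Atp5a1). Signs also turned to -0.00064 (Sdha), -0.0019 (Atp5a1), -0.0062 (Cyc1) in edgeR, -0.00065 (Sdha), -0.0019 (Atp5a1), -0.0062 (Cyc1) with TMM scaling, -0.023 (Ndufa1), -0.028 (Atp5a1), -0.029 (Cyc1), -0.049 (Cox6b2) in limma voom, -0.0202 (Sdha), 0.017 (Cox6a1), 0.011 (Cox8a), 0.047 (Cox6b1), 0.042 (Cox7b) with the length trend removed and -0.013 (Sdha), 0.024 (Cox6a1), 0.044 (Cox6b1), 0.056 (Cox7b) with the GC trend removed as well. The cause was not tested. The difference in share of counts, -0.014 percentage points, ranged from -0.08 to 0.05 with 1 library left out. Atp5g2 and Cox6b2 had at most 126 and 95 counts in a library and intervals wider than 1.5-fold, and isoforms under a mean count of 10 were not tested.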
